A study of Mus musculus with 2 samples.

Results

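Potassium channel subunit genes were read in the left cerebral cortex of newborn mice. The members are the protein-coding genes whose symbol consists of Kcn, lower-case letters and a closing number, and 92 such genes were found among 55536 annotated genes, of which 22028 are protein-coding. They were sorted by symbol into 40 voltage-gated (Kv) subunits, 15 accessory subunits, 15 inward rectifiers, 14 tandem-pore (K2P) subunits and 8 calcium-activated and related subunits. Total RNA was taken from 2 male B6CASTF1/J mice, the F1 hybrid of the C57BL/6 and CAST strains, at 4 days of age. Each mouse gave 1 library from 300 ng of RNA with ribosomal RNA reduced and spike-in RNAs added, and no treatment, genotype or other age was sampled. The libraries are called replicate 1 and replicate 2, as numbered in the labels, and there is no contrast between conditions.

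Potassium channels let potassium leave the cell and so set the resting potential, end the action potential and limit repetitive firing. Kv subunits open on depolarisation, inward rectifiers and K2P subunits carry current near rest, and calcium-activated subunits open when calcium or sodium enters. Pore-forming subunits assemble around 1 selectivity filter, and accessory subunits bind them and change their gating or their traffic to the membrane. In the newborn cortex neurons are still gaining these currents.

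Depth was 26897687 expected counts for replicate 1 and 29511737 for replicate 2, of which the members took 0.3204% and 0.3133%. Levels are in TPM, a unit that is corrected for transcript length and sums to the same total in each library, and are given as mean ± SD over the 2 mice. All 8 markers of cortical excitatory neurons and all 6 of interneurons reached a TPM of 1 in both libraries. Of 4 marker lists of nearby tissue, 3 had unequal sums between the libraries: the summed TPM of 4 choroid plexus markers, of which 1 was detected, was 1.97 in replicate 1 and 34.17 in replicate 2, that of 4 olfactory bulb markers, of which 2 were detected, was 7.99 and 39.97, and that of 6 striatal markers, all detected, was 73.06 and 123.7. The sum of 4 thalamus markers, of which 3 were detected, was 48.37 in replicate 1 and 0.93-fold that in replicate 2, and that of 4 red blood cell markers was 204.6 and 434.2. Since tissue was read in bulk, fewer cells of a type and less RNA per cell cannot be told apart.

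The feature the pore-forming members share is the filter itself, so its coding bases are shown first, for members of each class. The longest complete coding sequence of each member was searched in frame for 5 codons that read threonine or serine, any residue, glycine, then tyrosine, phenylalanine or leucine, then glycine. All 77 pore-forming members held such a run, and none of the 15 accessory members did. Accessory coding sequences are short, from 309 to 1212 bases. The share over other genes was not computed, so these counts describe the members only. All 14 K2P members, whose subunits have a pair of pore loops, held 2 runs, and all 15 inward rectifiers and all 8 calcium-activated members held 1. In the lines here the 15 filter bases are in capitals with 15 coding bases on each side, from the GENCODE M21 transcripts on mm10, and the coordinates are those of the capitals.
Kcnd2 (chr6:21217406-21714141, plus strand, with an intron inside): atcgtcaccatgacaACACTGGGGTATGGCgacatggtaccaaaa
Kcnh7 (chr2:62777343-62777357, minus strand): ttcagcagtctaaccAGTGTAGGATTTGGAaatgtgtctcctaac
Kcnma1 (chr14:23528413-23528427, minus strand): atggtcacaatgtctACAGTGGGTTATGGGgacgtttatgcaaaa
Kcnt1 (chr2:25894367-25894381, plus strand): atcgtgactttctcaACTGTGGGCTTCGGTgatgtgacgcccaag
Kcnn1 (chr8:70850657-70850671, minus strand): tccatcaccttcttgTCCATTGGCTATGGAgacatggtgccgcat
Kcnj4 (chr15:79485367-79485381, minus strand): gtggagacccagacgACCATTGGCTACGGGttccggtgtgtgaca
Kcnk10, first pore loop (chr12:98490058-98496199, minus strand, with an intron inside): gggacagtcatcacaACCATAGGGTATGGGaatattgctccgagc
Kcnk10, second pore loop (chr12:98440605-98440619, minus strand): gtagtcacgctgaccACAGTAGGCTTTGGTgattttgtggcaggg

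The 15 filter bases of Kcnj4, an inward rectifier, were identical to those of the rectifiers Kcnj12 and Kcnj15 and to those of Kcnq1, a voltage-gated subunit. Across 91 runs outside chromosome 18 there were 79 different sequences. The fourth codon was tyrosine in 31 Kv runs and phenylalanine in 8, and those 8 are the pore runs of the 8 ether-a-go-go genes, Kcnh1 to Kcnh8. A second run, with leucine at the fourth codon, lay upstream of the pore run in Kcna6 and Kcnh2, so the letters alone do not define a pore.

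An intron inside the filter was found in K2P and Kv4 genes only, in the transcripts read. In all 14 K2P members an intron interrupted the first filter after base 7 of the 15, inside the codon of the first glycine, and in none of the 14 did an intron interrupt the second. In all 3 Kv4 genes, Kcnd1, Kcnd2 and Kcnd3, an intron interrupted the filter 1 base later, after base 8. In the other Kv families, the inward rectifiers and the calcium-activated genes, no filter was interrupted in the transcripts read, which leave out Kcnn2 and Kcng2 on chromosome 18. The coding sequence lay in a single exon in 7 of 8 Kv1 genes, 5 of 15 inward rectifiers, 3 of 10 silent Kv genes and all 4 KCNE genes. It was spread over 14 to 17 exons in Kv7 genes, 28 and 32 exons in the sodium-activated genes and 27 and 31 exons in the BK genes.

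Detection required a TPM of at least 1 in each library, and 65 of 92 members (70.7%) met it, against 59.4% of all protein-coding genes. Detected members were 32 of 40 Kv, 9 of 15 accessory, 10 of 15 inward rectifier, 7 of 14 K2P and 7 of 8 calcium-activated genes. The median TPM over all members of a class, undetected ones included, was 15.5 ± 4.29 for calcium-activated genes (SD, n = 2), 10.4 ± 0.223 for Kv, 8.37 ± 1.15 for accessory, 3.93 ± 0.467 for K2P and 2.71 ± 0.0636 for inward rectifier genes. The median over all protein-coding genes was 4.16. The calcium-activated median was 18.58 in replicate 1 and 12.51 in replicate 2, above the Kv medians of 10.58 and 10.27 in each library, but it was the one that varied most between the mice.

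Expression was uneven within classes. The 5 highest members held 24.9% of the summed TPM of all 92, and the 10 highest held 39.5%. A mean TPM of 10 or more was reached by 42 members. Kv members held 51.11% of the summed TPM in replicate 1 and 50.97% in replicate 2, and inward rectifiers held 8.335% and 9.172%.

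**Figure D1:**
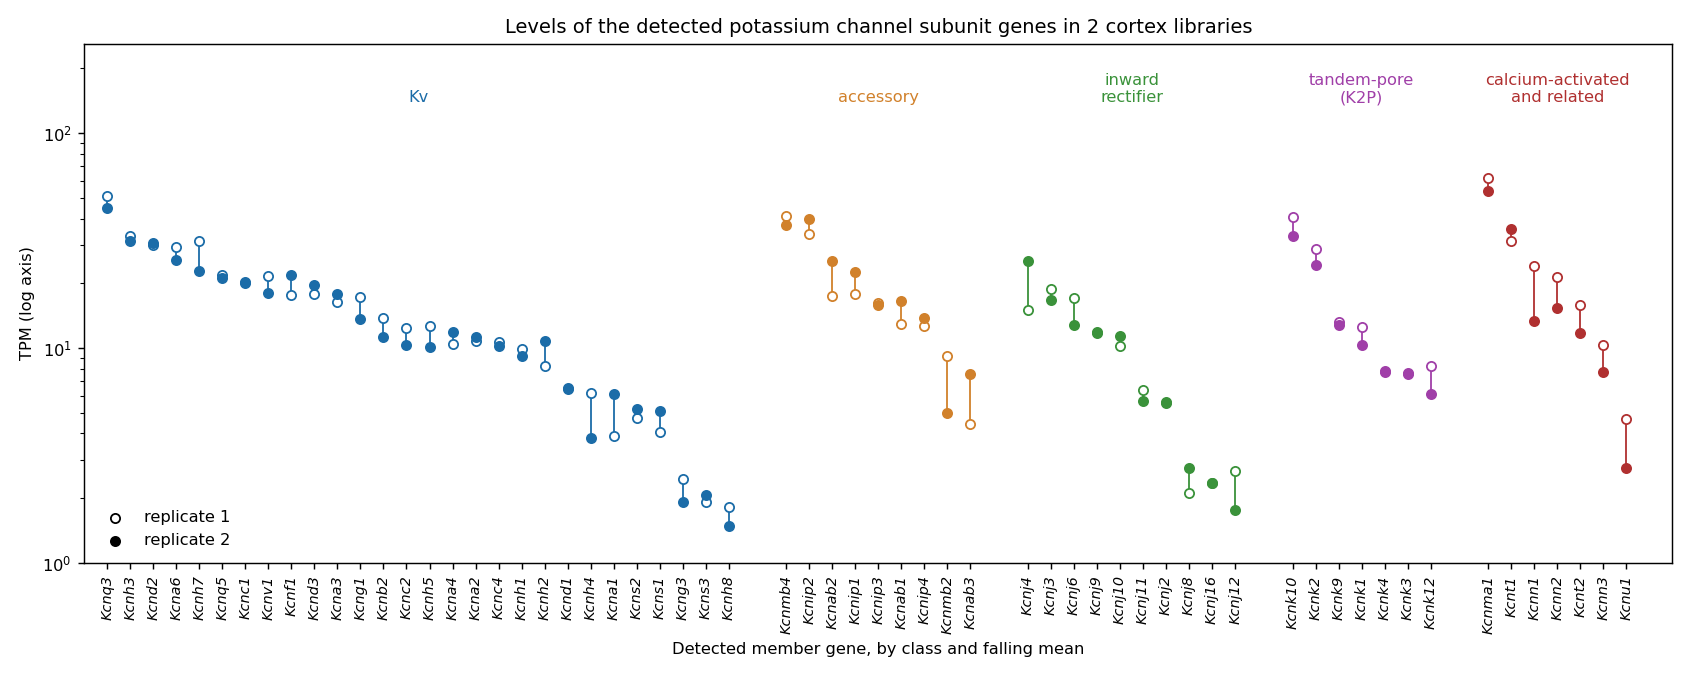
TPM on a log axis for 61 of the detected members, grouped by class and ordered by falling mean, with open circles for replicate 1 and filled circles for replicate 2. Kcnma1 lies at 61.94 and 53.67, and most pairs of circles lie close together, while Kcnj4, Kcnn1, Kcnmb2 and Kcnab3 are spread apart.

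Kv7 subunits carry the M current, which restrains repetitive firing. Kcnq3 (chr15:65986387-66286642) had a TPM of 51.14 in replicate 1 and 44.59 in replicate 2 (47.9 ± 4.63, SD, n = 2), and Kcnq5 had 21.86 and 21.27. Kcnq3 stood above Kcnq5 in each library. Kcnq1, known from heart, was undetected with 0.56 and 0.54.

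Among the delayed rectifiers, Kcnb2 of the Kv2 family had 13.74 and 11.21 TPM. Of the Kv3 genes, which support fast firing, Kcnc1 had 20.11 and 20.19, Kcnc2 had 12.43 and 10.29, and Kcnc4 had 10.6 and 10.24. Kcnc1 was above these other two, while Kcnc2 and Kcnc4 lay within 1 SD of each other, so their order is not defined.

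Kv4 and Kv1 subunits carry transient and low-threshold currents. Kcnd2, the A-type subunit of dendrites, had 30.09 and 30.68 TPM, Kcnd3 had 17.87 and 19.56, and Kcnd1 had 6.46 and 6.51. The 3 Kv4 genes kept that order in both libraries with no overlap. Within Kv1, Kcna6 led with 29.53 and 25.54, followed by Kcna3 with 16.42 and 17.85. Kcna2, an axonal subunit, had 10.79 and 11.24 and did not separate from Kcna4 with 10.38 and 11.83. Kcna1, its partner along axons, had only 3.9 and 6.08, Kcna5 was below the detection limit in replicate 1 with 0.64 and 1.39, and Kcna7 and Kcna10 had a count of 0 in both libraries.

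Of 8 ether-a-go-go genes, whose channels open and close slowly or shape the resting potential, 7 were detected. Kcnh3 had 33.3 and 31.51 TPM, Kcnh7 had 31.37 and 22.84, Kcnh5 had 12.64 and 10.07, and Kcnh1 had 9.86 and 9.21. Kcnh2, the channel known for cardiac repolarisation, had 8.21 and 10.77. Kcnh4 and Kcnh8 were lower, with 6.19 and 3.79 and with 1.82 and 1.49, the latter being the lowest of the detected Kv genes, and Kcnh6 was undetected with 0.69 and 0.75. Kcnh3 and Kcnh7 were nearly equal in replicate 1 and separate in replicate 2.

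Silent Kv subunits form no channel alone and modify Kv2 channels. Kcnv1 had 21.51 and 18.01 TPM, Kcnf1 had 17.56 and 21.85, and Kcng1 had 17.22 and 13.6. The order of Kcnv1 and Kcnf1 differed between the libraries. The other detected silent subunits, Kcns1, Kcns2, Kcns3 and Kcng3, had means between 1.99 and 4.965 TPM, and Kcng2, Kcng4 and Kcnv2 were undetected.

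The accessory subunits were led by Kcnmb4, the neuronal beta subunit of the BK channel, with 40.91 and 37.17 TPM. All 4 KChIP genes, calcium sensors that bind Kv4 channels, were above 10 TPM in mean: Kcnip2 had 33.85 and 39.62, Kcnip1 had 17.88 and 22.58, Kcnip3 had 16.15 and 15.82, and Kcnip4 had 12.6 and 13.74. All 3 Kv beta genes, cytoplasmic partners of Kv1 channels, were detected: Kcnab2 had 17.47 and 25.41, Kcnab1 had 12.88 and 16.51, and Kcnab3 had 4.4 and 7.55. Kcnab2 and Kcnab3 passed the test between libraries described further on, and Kcnab1 did not. None of the 4 KCNE genes among the members, small membrane partners known from heart and epithelia, was detected, and their summed TPM was 0.8 in replicate 1 and 1.04 in replicate 2. Kcne1l, a gene of the same family whose symbol falls outside the rule, was detected with 7.48 and 8.3. Of the other BK beta genes, Kcnmb2 had 9.18 and 4.96, and Kcnmb1 and Kcnmb3 were undetected.

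Among inward rectifiers, Kcnj4, a strong rectifier of forebrain neurons, had 14.96 and 25.39 TPM. The G-protein-gated subunits, which open after Gi-coupled receptors act, lay close together, with 18.78 and 16.71 for Kcnj3, 17.09 and 12.77 for Kcnj6 and 11.72 and 11.8 for Kcnj9. Their fellow subunit Kcnj5, known from the heart, was undetected with 0.68 and 0.72. Kcnj10, the astrocyte channel that clears potassium, had 10.18 and 11.38, and its partner Kcnj16 had 2.34 in both libraries. Of the pore subunits of ATP-sensitive channels, Kcnj11 had 6.38 and 5.68, and Kcnj8, known from pericytes, had 2.1 and 2.76. Kcnj2 had 5.52 and 5.57, and Kcnj12 was the lowest detected rectifier with 2.67 and 1.75.

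K2P expression rested on few genes. Kcnk10 (chr12:98429437-98578310), a mechanically and thermally gated leak channel, had 40.49 and 33.14 TPM, and its relative Kcnk2 had 28.83 and 24.4. Both were higher in replicate 1. Kcnk9 had 13.18 and 12.82, and Kcnk1 had 12.56 and 10.31. Kcnk4 had 7.75 and 7.82, Kcnk3 had 7.53 and 7.61, and Kcnk12 had 8.28 and 6.1, so that Kcnk12 was above the other two in replicate 1 and below them in replicate 2. The other 7 K2P genes were undetected, and 3 of them, Kcnk7, Kcnk16 and Kcnk18, had a count of 0 in both libraries.

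Of the calcium-activated and related genes, Kcnma1 (chr14:23289431-24014491), the pore of the BK channel, had 61.94 and 53.67 TPM. The sodium-activated genes Kcnt1 and Kcnt2 had 31.33 and 35.8, and 15.82 and 11.71. Their order was reversed on transcripts annotated as protein-coding, with 5.09 and 6.99 for Kcnt1, and 14.53 and 10.17 for Kcnt2. Coding values in the other quantification had that reversed order too, with 9.565 and 12.36, and 20.03 and 15.32. The SK genes, which carry the afterhyperpolarisation, had 24.09 and 13.31 for Kcnn1, 21.34 and 15.27 for Kcnn2, and 10.35 and 7.75 for Kcnn3. All 3 were higher in replicate 1 in TPM. Kcnn4, known from red blood and immune cells, was undetected with 0.24 and 0.22. Kcnu1, a BK relative known from sperm, had 4.65 and 2.77, but its only transcript with a filter run in the coding sequence, Kcnu1-201, was listed at 0 in both libraries of the alignment-based tables. There its TPM lay on Kcnu1-202 and Kcnu1-203, shorter transcripts that begin downstream of the filter. The other quantification gave Kcnu1-201 a TPM of 0.482 and 0.296, so whether the full transcript was present is not settled.

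A count of 0 in both libraries of the alignment-based gene tables was found for 7 members, namely Kcna7, Kcna10, Kcne1, Kcnj1, Kcnk7, Kcnk16 and Kcnk18. A count of 0 allows up to 3 counts, which for these genes is between 0.046 and 0.174 TPM. The other quantification also gave 0 for 5 of them, but it gave Kcnj1 a TPM of 0.219 and 0.0248 and Kcna7 one of 0.038 and 0.0693, and the first Kcnj1 value is above that limit. The other 20 undetected members had means between 0.025 and 1.04 TPM. Nearest to the limit, Kcnk13, a microglial channel, had 0.99 and 1.1 outside it, and Kcnh8 was nearest inside.

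A partner list of 20 genes held known partners, anchors and loci next to the subunits, and 17 were detected. The A-type partners Dpp6 and Dpp10 had 57.97 and 62.81 TPM, and 42.62 and 37.35. The axonal anchor Ank3 had 286.29 and 245.79, and the Kv1 complex genes Adam22, Cntn2, Cntnap2 and Lgi1 had means of 68.84, 54.28, 53.23 and 25.55. Of the BK gamma genes only Lrrc55 was detected, with 26.63 and 25.62, and Lrrc26, Lrrc38 and Lrrc52 had at most 5 counts in a library. Amigo1, a partner of Kv2 channels, had 11.77 and 13.66. The Kv2 tethers Vapa and Vapb had means of 84.53 and 43.17. The sulfonylurea receptors Abcc8 and Abcc9 had means of 9.79 and 3.92, and Kcnrg had 1.865. By the test between libraries, 5 of these 17 genes were higher and 2 lower in replicate 2. The 2 lower were Ank3 and Kcnq1ot1, an antisense RNA that overlaps Kcnq1. Among protein-coding genes with 200 or more counts 20.8% were higher and 14.9% lower. The sets are not alike, since Kcnq1ot1 is noncoding and Kcnrg had 55 and 60 counts.

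Genes of the same family, or a subunit and its partner gene, were set against each other within each library as log2 of TPM + 0.1. A pair counted as called if the sign was shared by both mice and the mean lay beyond 2 SD. These are RNA ratios and not the make-up of a channel. Of 29 pairs 24 were called, and an exact test across 2 mice cannot give a p below 0.5, so no p is attached. The pairs were chosen with earlier results of these data known. No share was computed over other gene pairs, so the 24 describes these pairs only. Kcnq3 exceeded Kcnq5 by 1.14 ± 0.11 on this scale (SD, n = 2), a 2.21-fold excess, and Kcnd2 exceeded Kcnd3 by 0.70 ± 0.072. Kcnma1 exceeded its subunit Kcnmb4 by 0.56 ± 0.048, and Kcnmb4 exceeded Kcnmb2 by 2.51 ± 0.52, the widest of the 29. Kcnj10 exceeded Kcnj16 by 2.15 ± 0.11, and Kcnab2 exceeded Kcnab3 by 1.85 ± 0.16.

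In 6 called pairs the second gene was higher. Kcna1 lay below Kcna2 with a log2 ratio of -1.16 ± 0.40, Kcnk1 below Kcnk2 with -1.21 ± 0.030, Kcnip1 below Kcnip2 with -0.86 ± 0.077, and Kcnab1 below Kcnab2 with -0.53 ± 0.13. Kcnk3 lay below Kcnk9 with -0.77 ± 0.039 and Kcnj11 below Abcc8 with -0.69 ± 0.26. The last 2 were not called in the other quantification, where the mean log2 ratios were -0.53 and -0.70. Pairs not called were Kcna2 and Kcna4, Kcnj3 and Kcnj6, Kcnj6 and Kcnj9, Kcnn1 and Kcnn2, and Kcnj8 and Abcc9. For Kcna2 over Kcna4 the mean log2 ratio was -0.0089 here and 0.23, called, in the other quantification.

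**Figure D2:**
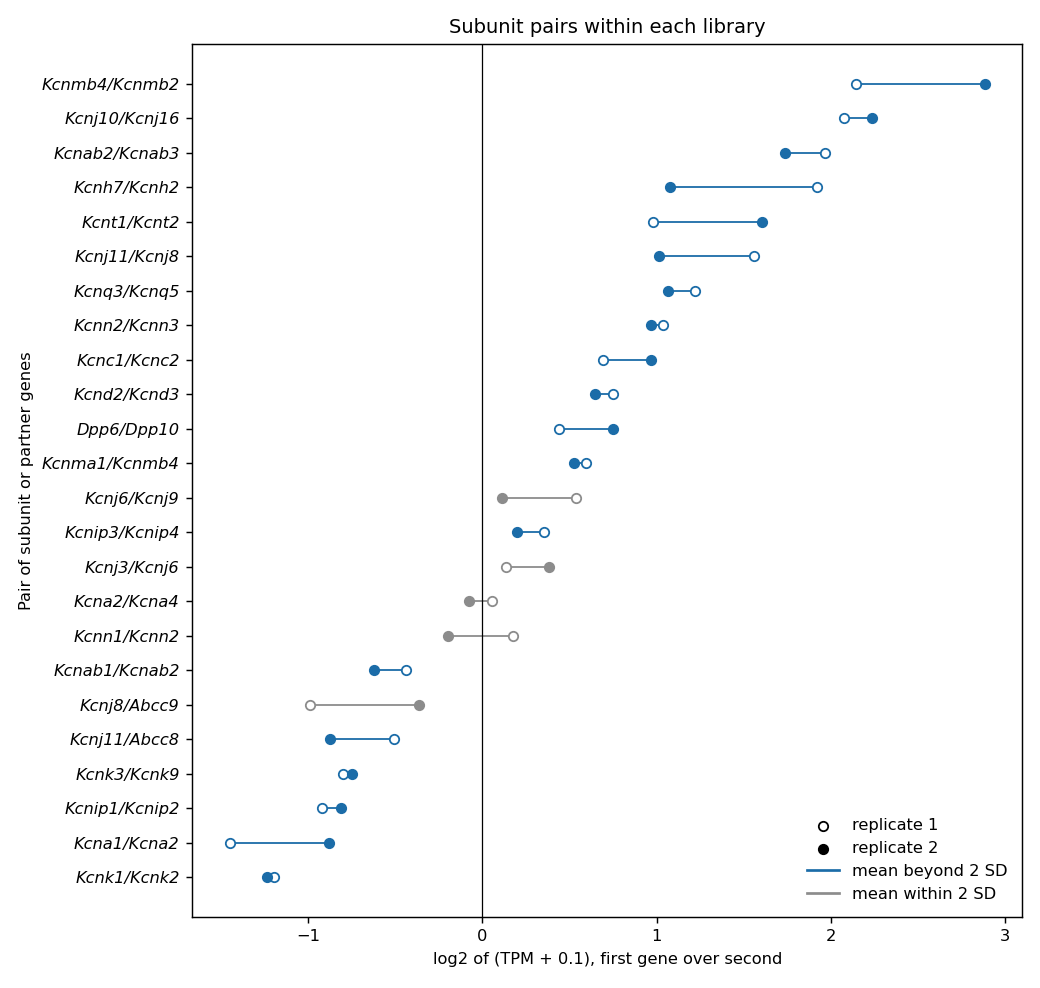
The log2 ratio of TPM + 0.1, first gene over second, for 24 of the pairs in replicate 1 (open) and replicate 2 (filled), ordered by the mean. Called pairs are blue and the 5 pairs whose mean lies within 2 SD are grey. Kcnmb4 over Kcnmb2 is at the top with 2.51, and Kcnk1 over Kcnk2 is at the bottom with -1.21.

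The 2 libraries were compared gene by gene with a two-sided exact binomial test on expected counts scaled with TMM factors, adjusted by the Benjamini-Hochberg method over all 20385 genes with 10 or more counts. The test compares these 2 libraries and covers counting error only, so a call says nothing of a condition. A call was an adjusted p under 0.05, and 33 of 80 members tested were called, 16 higher and 17 lower in replicate 2, against 26.1% of all genes tested. Calls depend on depth, so members with 200 or more counts were set beside protein-coding genes of the same kind. Of 62 such members 32 were called (51.6%), against 35.7% of protein-coding genes. The 15 higher members were 24.2%, against 20.8%, and the 17 lower members were 27.4%, against 14.9%. The median size of the log2 ratio, sign ignored, was 0.214 in these members and 0.121 in the other protein-coding genes, while their median counts were 1568 and 1716.

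Few member differences reached 1.5-fold, but their share was above that of protein-coding genes. With 200 or more counts 3 of 62 members were called that much higher, against 126 of 11879 protein-coding genes (1.06%). That much lower was 1 of 62 members, against 97 of 11879 genes (0.817%). Whether these shares differ was not tested. Kcnj4 had 523 counts in replicate 1 and 1004 in replicate 2, a log2 ratio of 0.84 with a counting standard error of 0.08 (adjusted p = 6.2e-26, exact binomial test). Kcna1 had 255 and 441 counts, a log2 ratio of 0.68, and Kcnab3 had 170 and 286, a log2 ratio of 0.64. Kcnh4 had 388 and 268 counts, a log2 ratio of -0.64. Below 200 counts Kcna5 had 30 and 74 counts, a log2 ratio of 1.18 with a standard error of 0.31. Of these 5, the first 3 and Kcna5 were higher in replicate 2.

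By class, 8 of 36 Kv members tested were higher and 8 lower, and 3 of 14 inward rectifiers were higher and 2 lower. With 200 or more counts, 22.6% of 31 Kv members were higher and 25.8% lower. For 9 inward rectifiers the shares were 33.3% and 22.2%. With 200 or more counts, 44.4% of accessory members were higher and 42.9% of K2P members lower, on 9 and 7 genes, beside the 20.8% and 14.9% of protein-coding genes; whether these shares differ was not tested. Of 12 accessory members tested 4 were higher and none lower: Kcnab2 with a log2 ratio of 0.49, Kcnip1 with 0.41, Kcnip2 with 0.30 and Kcnab3. With total count scaling or a limit of 50 counts Kcnmb2 was called lower. Of 10 K2P members tested 3 were lower and none higher: Kcnk12 with -0.37, Kcnk10 with -0.25 and Kcnk2 with -0.16, where Kcnk2 was not called with DESeq2 size factors and neither Kcnk2 nor Kcnk12 in the other quantification. All 3 detected SK genes were lower, beside 14.9% of protein-coding genes with 200 or more counts: Kcnn1 with -0.51, Kcnn3 with -0.30 and Kcnn2 with -0.26. The median log2 ratio over tested members was 0.19 in the accessory class, -0.18 in K2P and -0.28 in the calcium-activated class, against 0.022 over protein-coding genes with 200 or more counts.

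Within a family, members also moved apart. Kcnt1 was higher in replicate 2 with a log2 ratio of 0.29 and Kcnt2 lower with -0.35. Kcnh2 was higher with 0.31, and Kcnh7, Kcnh4 and Kcnh5 were lower with -0.37, -0.64 and -0.25. Kcnf1 was higher with 0.39 and Kcnv1 lower with -0.26. Kcnma1 was nearly level with a log2 ratio of 0.00, while Kcnq3 was lower with -0.12. Summed marker TPM moved between the libraries too, by 1.26-fold for interneurons, 1.69-fold for striatum, 2.12-fold for red blood cells, 5.0-fold for olfactory bulb and 17.3-fold for choroid plexus, all higher in replicate 2. Markers called higher were 5 of 6, 6 of 6, 4 of 4, 4 of 4 and 2 of 4 in that order, and none was called lower. Among protein-coding genes with 200 or more counts 20.8% were higher and 14.9% lower, while some markers had fewer counts. Astrocyte markers, with a sum ratio of only 1.07, had 5 of 6 called higher and 1 lower. Oligodendrocyte lineage markers had 2 of 6 higher and 2 lower, and thalamus markers 1 of 4 higher. Endothelial and mural markers had 1 of 5 lower, and no microglia marker was called. The choroid plexus sum was mostly Ttr, with 1.03 and 32.43 TPM, while Kl had 0.52 and 0.49. The interneuron marker not called was Lhx6, with 26.62 and 25.32. The cortical excitatory sum moved by 0.883-fold, with 2 of its 8 markers higher and 3 lower. Their part in the members' ratios was not tested.

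**Figure D3:**
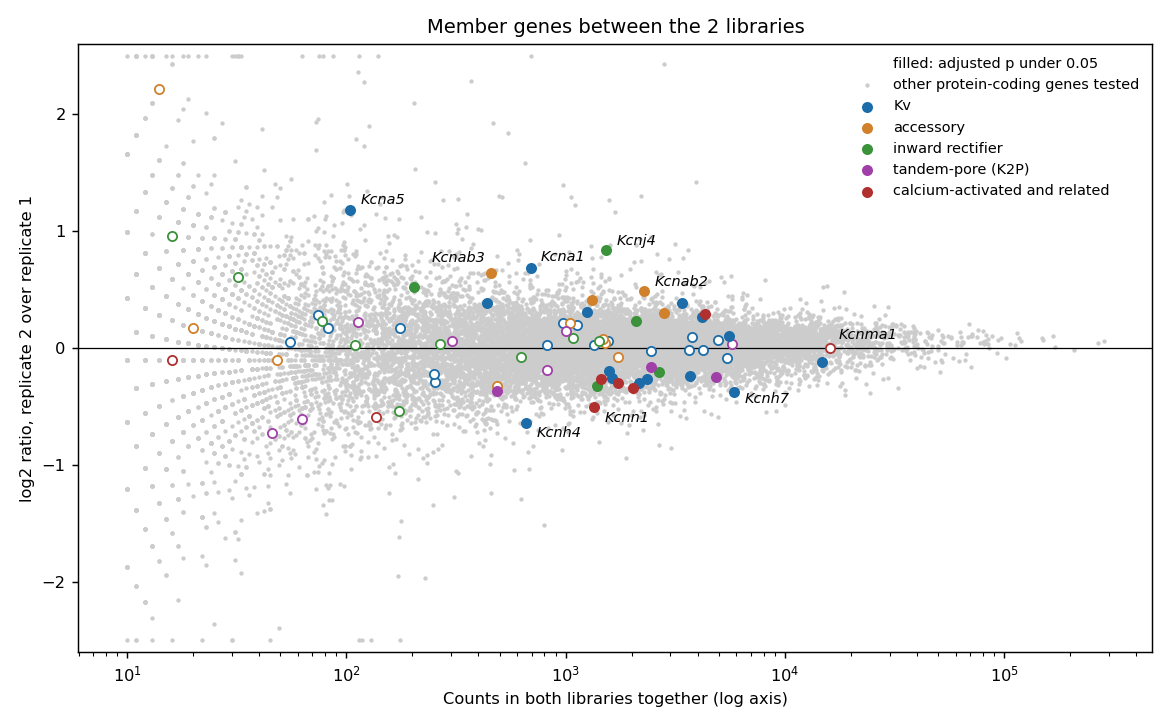
The log2 ratio of replicate 2 over replicate 1 against the counts of both libraries together on a log axis, for most members in colour by class over the other protein-coding genes tested in grey, with grey points beyond 2.5 drawn at the edge. Filled members have an adjusted p under 0.05; Kcnj4, Kcna1 and Kcna5 stand highest among the called members and Kcnh4 lowest.

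Called members differed in the length of genome they span. Detected members had a median span of 52.2 kb, against 25.9 kb for detected protein-coding genes, and 22 of 65 spanned 100 kb or more (33.8%), against 16.3%. Among members with 200 or more counts, 12 of the 17 lower in replicate 2 spanned at least 100 kb (70.6%), as did 3 of the 15 higher (20.0%) and 7 of the 30 not called (23.3%). The 3 higher ones were Kcnd2, Kcnd3 and Kcnip1. Median spans were 194 kb for lower members and 32 kb for higher members. The other protein-coding genes had the same order with a smaller gap, with 28.0% of lower and 15.6% of higher genes at 100 kb or more. The spans come from the annotation and did not enter the choice of members, and no test was made of the difference.

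**Figure D4:**
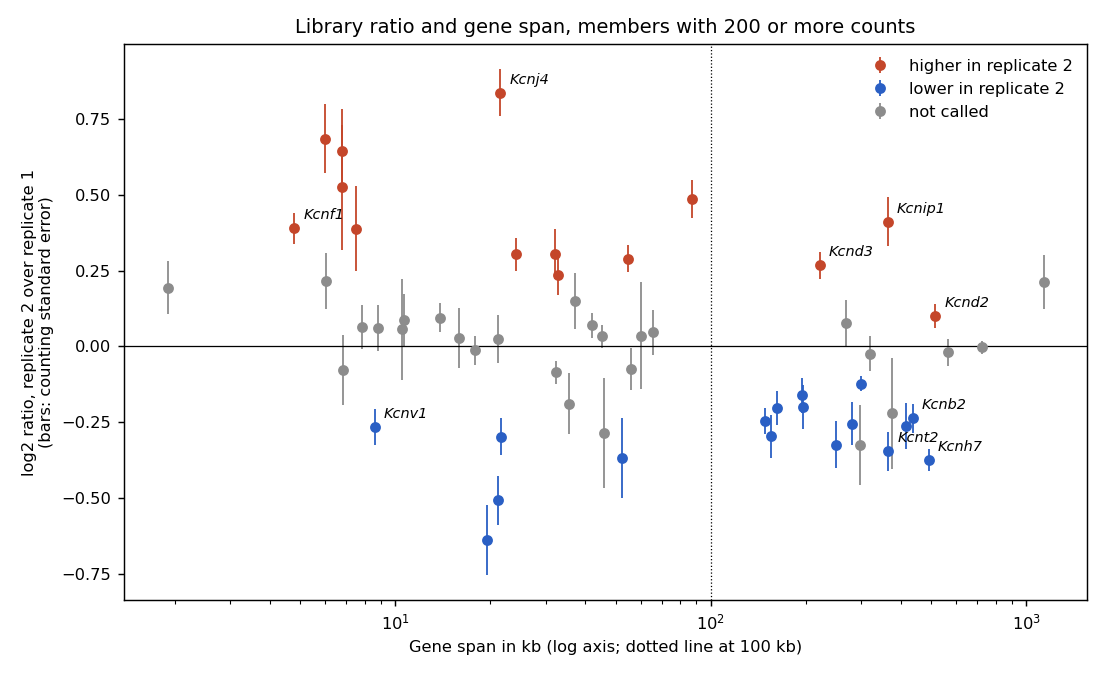
The log2 ratio of replicate 2 over replicate 1, with counting standard errors as bars, against gene span in kb on a log axis, for 58 of the members with 200 or more counts. Right of the dotted line at 100 kb lie 12 lower members in blue and 3 higher members in red.

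The transcript tables showed what the gene totals were made of. Of 62 members with 200 or more counts, 51 have more than 1 annotated transcript, and in 42 of these the leading transcript was the same in both quantifications. In 14 members the leading transcript took under 50% of the gene. In 37 of all 62 members transcripts annotated as protein-coding took over 90% in both libraries, and in 2, Kcna6 and Kcnt1, under 50%. The 37 include members whose annotated transcripts are all coding, where the share is fixed by the annotation. The share over other genes was not computed.

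The leading coding transcripts of Kcnq5 differ by a cassette, an exon of 57 bases that Kcnq5-203 has and Kcnq5-201 lacks. It is shown in capitals, because it is the whole coding difference between them, with 15 bases of the neighbouring exons on each side, in transcript sense on mm10.
Kcnq5 57-base exon (chr1:21461551-21461607, minus strand): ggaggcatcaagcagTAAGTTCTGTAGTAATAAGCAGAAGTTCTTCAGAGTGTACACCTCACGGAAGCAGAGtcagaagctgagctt
Coding transcripts with it held 53.14% and 42.49% of the coding TPM in the alignment-based tables but 31.48% and 32.43% in the other quantification. By mean share the leading Kcnq5 transcript therefore differed between the quantifications, Kcnq5-203 in the first and Kcnq5-201 in the second. Even in the first, Kcnq5-203 took 46.05% of the gene against 29.24% in replicate 1, but 35.75% against 35.77% in replicate 2. Their order is not settled by these tables.

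Most of the Kcnk10 TPM lay on a short transcript, and most of its counts on a long one. Kcnk10-203, 1357 bases long, took 50.97% and 51.93% of the gene's TPM with 442 and 417.05 counts, while Kcnk10-202, 7460 bases long, took 37.66% and 36.39% with 1911.26 and 1709.94 counts. The coding sequence of Kcnk10-203 is 723 bases and holds 1 filter run, the first, whereas that of Kcnk10-202 is 1605 bases and holds both. In the other quantification Kcnk10-202 led, with 41.13% and 40.54%, over 36.9% and 37.92%. The TPM of Kcnk10-202 alone was 15.25 and 12.06. Kcnk10-201, whose coding sequence of 1563 bases also holds both runs, had a further 3.78 and 3.17.

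Kcna6 and Kcnt1 carried little TPM on transcripts annotated as coding. For Kcna6, Kcna6-201, annotated as a target of nonsense-mediated decay, took 90.45% and 95.64%. Its coding sequence of 1587 bases is identical to that of the coding transcript Kcna6-204, which took 0.12% and 0.04%, and the 2 transcripts differ at their ends, so the label and not the coding bases sets them apart. In the other quantification Kcna6-204 took 16.82% and 36.39%. For Kcnt1, coding transcripts took 16.24% and 19.52% of the gene, equal to 5.09 and 6.99 TPM, and Kcnt1-206, annotated as intron-retaining, led with 31.18% and 29.74%. The other quantification gave coding shares of 14.9% and 20.9% for Kcnt1, so the low coding share held in both.

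TPM and counts gave different library ratios for 3 genes, in which short transcripts took unequal shares. In 62 members the log2 ratio in TPM and that in counts differed by more than 0.25 in Kcnmb2, Kcnn1 and Kcnab1 only, and in the rest by -0.22 to 0.14. For Kcnn1 the TPM ratio was -0.86 and the count ratio -0.51, and the transcript Kcnn1-203 of 338 bases took 21.65% in replicate 1 and 6.85% in replicate 2. For Kcnmb2 the ratios were -0.89 and -0.32, and Kcnmb2-206, also of 338 bases, took 28.21% and 0%. Both fragments were at 0 in the other quantification. For Kcnab1 the ratios were 0.36 and 0.08, and the noncoding Kcnab1-203 of 534 bases took 0% and 24.15%, on 33.4 counts in replicate 2. Kcnab1-203 took 12.98% and 36.35% in the other quantification, so its absence from replicate 1 did not hold there.

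Leading transcripts also differed between quantifications in Kcnk2, Kcnn2, Kcnc2, Kcnh4, Kcnj8, Kcnj16 and Kcnt1. For Kcnk2 the transcript with the highest mean, Kcnk2-201, took 21.18% and 26.47%, although Kcnk2-202 took 23.28% in replicate 1, and in the other quantification Kcnk2-206 led with 36.26% and 38.19%. For Kcnj16, Kcnj16-201 took 77.89% and 84.99% in one and almost nothing in the other, where Kcnj16-202 took 78.92% and 47.32%. Besides Kcnq5, Kcnt1, Kcnk2, Kcnn2 and Kcnc2, leading transcripts under 50% included those of Kcnip2, Kcnh7, Kcnab2, Kcnn1, Kcnj6, Kcnt2, Kcnip4 and Kcnk4.

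**Figure D5:**
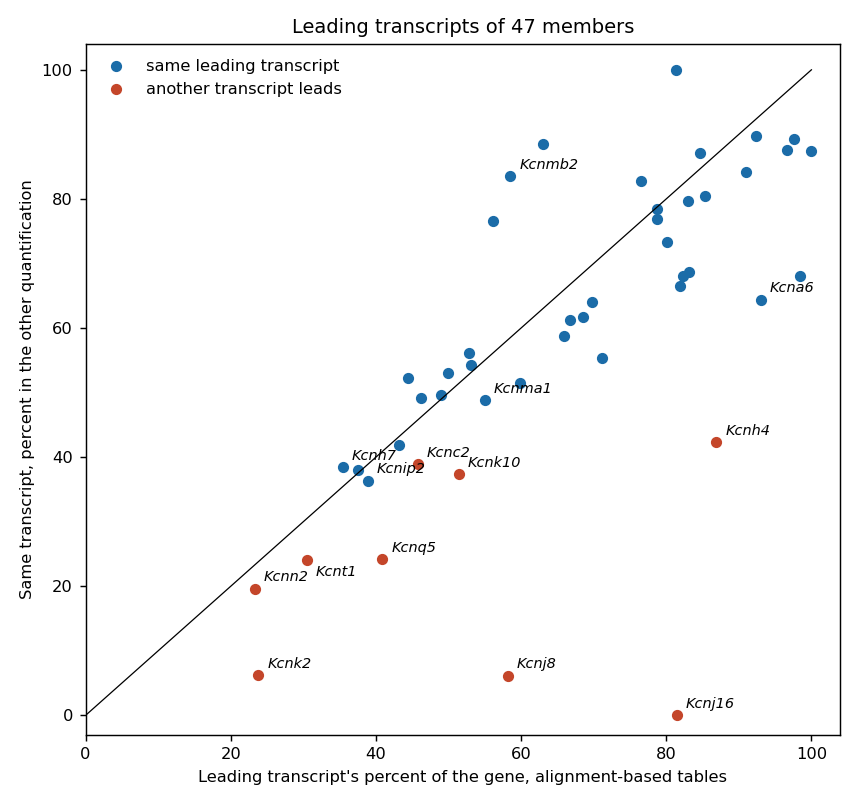
Mean percent of the gene taken by the leading transcript of the alignment-based tables (x) and by the same transcript in the other quantification (y), for 47 of the members with 200 or more counts and more than 1 transcript. The 9 red points, Kcnj16, Kcnj8, Kcnh4 and Kcnk2 among them, have another leading transcript in the other quantification and lie below the line of equality.

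Some members lie side by side in the genome. There were 10 pairs of adjacent members within 200 kb of each other, and levels within a pair were alike in some and unlike in others. On chromosome 3 Kcna3 had a mean of 17.14 TPM, Kcna2 63.08 kb away had 11.02, and Kcna10 68.05 kb further had no count. On chromosome 6 Kcna5 had 1.015, Kcna1 had 4.99 and Kcna6 had 27.54. Kcnj9, a neuronal subunit, and Kcnj10, the astrocyte channel, lie 11.89 kb apart on chromosome 1 with 11.76 and 10.78.

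RefSeq promoter windows were found for 67 members by symbol, and the 250 bases before the start were scanned for CG, which reads the same on both strands. The highest count over a gene's listed starts was used, which favours genes with more listed starts. Detected members had a median of 15.5 CG, and 33 of 46 (71.7%) had 10 or more, while undetected members had a median of 6.0, and 4 of 21 (19.0%) had 10 or more. Over all protein-coding genes with a window, 80.2% of detected and 14.9% of undetected genes had 10 or more. The Kcna3, Kcna2 and Kcna10 windows, from GRCm38.p6 on the plus strand, are shown because these neighbours differ widely in CG, which is in capitals.
Kcna3 (chr3:107035912-107036161): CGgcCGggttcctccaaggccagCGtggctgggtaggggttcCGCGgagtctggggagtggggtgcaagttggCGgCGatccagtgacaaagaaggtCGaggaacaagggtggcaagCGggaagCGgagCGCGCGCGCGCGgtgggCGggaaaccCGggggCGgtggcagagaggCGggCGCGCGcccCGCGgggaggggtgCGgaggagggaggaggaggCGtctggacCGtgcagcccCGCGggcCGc
Kcna2 (chr3:107101317-107101566): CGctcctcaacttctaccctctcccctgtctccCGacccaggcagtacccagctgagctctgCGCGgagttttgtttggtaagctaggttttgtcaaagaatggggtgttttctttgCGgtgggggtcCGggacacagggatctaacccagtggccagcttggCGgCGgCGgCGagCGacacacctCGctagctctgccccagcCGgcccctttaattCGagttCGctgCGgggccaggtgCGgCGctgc
Kcna10 (chr3:107182893-107183142): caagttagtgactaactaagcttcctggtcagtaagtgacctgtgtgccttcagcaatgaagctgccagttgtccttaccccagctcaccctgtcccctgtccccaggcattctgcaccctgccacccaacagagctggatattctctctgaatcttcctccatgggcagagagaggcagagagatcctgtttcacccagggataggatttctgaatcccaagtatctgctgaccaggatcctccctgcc
The windows held 31, 18 and 0 CG. A CG count is a description of these bases and is not a measure of methylation.

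Exons of 28 members overlap those of another gene, 26 of them on the opposite strand. Whether counting used strand is not given in the sources used here, so reads of such partners may not be told apart. Kcnj13, with 12 and 20 counts, shares 49.1% of its exon bases with Gigyf2 on the opposite strand, which had 2389 and 2071 counts. Kcnq1 shares 2.96% with Kcnq1ot1, an imprinted antisense RNA with 6797 and 4540 counts. The log2 ratio was -0.69 for Kcnq1ot1 and 0.05 for Kcnq1, the latter with a counting standard error of 0.39 on 26 and 29 counts. Kcnmb4 shares 20.8% with Kcnmb4os2, which had 270 and 333 counts, and Kcna6 shares 39.6% with Gm26673, which had 5 and 1.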

How the data were processed

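Total RNA of 2 left cerebral cortices was read in 1 library each. The authors deposited, per the file headers, gene tables with expected counts and TPM, transcript tables of the same kind with each transcript's percent of its gene, and transcript tables of another quantification with estimated counts and TPM. The effective length in the gene tables enters as deposited by the authors. Per the labels and the deposited notes, values are on mm10 with GENCODE M21. Which aligner and quantifiers ran, and if reads were assigned by strand: not given in the sources used here.

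Members were matched by symbol and grouped by symbol prefix. Expected counts were rounded for the exact binomial test, with TMM factors from edgeR 4.0.16 in R 4.3.3, a prior count of 0.5 and a minimum of 10 counts, after a trial on simulated data. Rows that name no gene took 0.3231% and 0.3507% of counts and were left out. Pair ratios used a pseudocount of 0.1 TPM. Python 3.11.15 with scipy 1.17.1 was used otherwise. Named are members with a mean of 10 TPM or more, the 4 highest and the lowest detected of each class, members called with a 1.5-fold difference, pair genes, members with 0 counts, detected partners and members with unsettled leading transcripts. Members outside this rule are named to complete a family. Some genes and sequences that the rule names are not reported here and are left out of the figures; they remain in the counts. The members, lists and pairs were chosen with earlier results of these data known. The mice carry CAST alleles, and their effect on counting was not tested.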

Additional observations from a re-analysis of the deposited data

How the results depend on the processing

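The number of detected members was 74 at a TPM of 0.5, 61 at a TPM of 2, 71 in the other quantification, 73 with TPM rescaled over protein-coding genes alone and 64 on transcripts annotated as protein-coding, a setting chosen after the data were seen. Without 1 of the replicates it was 65 to 67. Class medians are TPM values on the scale of the table used. In the other quantification they were 13.73 for Kv, 3.899 for inward rectifier, 5.102 for K2P and 22.03 for calcium-activated genes. Rescaled over protein-coding genes they were 19.64 for Kv, 15.75 for accessory, 5.118 for inward rectifier, 7.402 for K2P and 29.25 for calcium-activated genes. Over detected members only they were 12.36 for Kv, 16.33 for accessory, 8.405 for inward rectifier and 11.44 for K2P genes, which are fewer genes by construction. The rescaling multiplies every TPM of a library by the same factor, so those medians rise by construction. For the moves in the other quantification the cause was not tested. Kcna2 over Kcna4 was 0.2292 in the other quantification, with the opposite sign. Members called between libraries numbered 31 to 37 over 5 alternatives, and no called member changed sign. With total count scaling 14 were higher and 22 lower, and with DESeq2 1.42.0 size factors 18 and 16. No call could be made from 1 library. No paired analysis was possible because there is 1 group. Depth limits members under 200 counts, where the counting error reaches the size of the differences seen in the others.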
